A study of Homo sapiens with 6 samples.

Results

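The 10 genes described here are ligands, receptors and signal carriers of the IL6 cytokine family, in LN229 cells, an established human glioblastoma line. They were chosen by symbol, namely the ligands LIF, IL6, IL11 and CLCF1, the receptor chains LIFR, IL6R, OSMR and IL6ST, the transcription factor STAT3 and its feedback gene SOCS3. All 10 were among the 24480 gene symbols of the deposited table, and 9 passed the filter on low values. RNA-seq compared 3 libraries of cells transduced to overexpress LACTB, a mitochondrial serine beta-lactamase-like protein, with 3 libraries of cells transduced with the vector alone. The sources used here do not say which promoter drives LACTB or whether the transduced cells were pools or single clones. Each value is a normalized read count, adjusted by the authors in a way that is not given.

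Cytokines of this family share a receptor chain, IL6ST. LIF signals through LIFR paired with IL6ST, oncostatin M through OSMR or LIFR paired with IL6ST, and IL6 and IL11 bind their own receptors, IL6R and IL11RA, before joining IL6ST. CLCF1 acts through CNTFR, LIFR and IL6ST. Kinases of the JAK family bound to these chains phosphorylate STAT3, which enters the nucleus and switches on targets, SOCS3 among them. SOCS3 protein binds IL6ST and the JAK kinases and damps the signal. In glioblastoma, STAT3 is known as a factor of the mesenchymal state. The files hold RNA only, so phosphorylation of STAT3 was not measured.

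LACTB transcripts stood at 4183 ± 96.3 normalized counts in LACTB cells and 455 ± 61.4 in vector cells (SD, n = 3 each), in the direction of the labels. Column totals were 34907394 to 35683869 in LACTB libraries and 38049489 to 41384595 in vector libraries. The number of reads behind them is unknown. Genes were compared on log2(value + 1) with limma over the 12939 genes whose mean reached 1 CPM (37.7 normalized counts), and p-values were adjusted over all of them with a threshold of 0.05. A large part of the transcriptome differed, with 51.9% of tested genes called, 27.4% higher and 24.6% lower in LACTB cells. The median difference of all tested genes was 0.05, and 0.24 once column totals were made equal. Of the genes called, 52.7% were higher in LACTB cells, against 72.3% at equal totals and 39.3% after median centring. Of 7 tested glioma markers 4 rose and 2 fell. SOX2, a stem cell factor, rose by 1.24 (adjusted p = 8.4e-08), VIM by 0.48 (adjusted p = 0.0012) and CD44 by 0.39 (adjusted p = 0.0047), CD44 losing its call under the length and GC adjustment (0.08, adjusted p = 0.38). S100B fell by 1.22 (adjusted p = 2.1e-07). Of the markers named after their values were seen, GFAP rose by 0.70 and OLIG2 fell by 0.56. OLIG2 (adjusted p = 0.0094) lost its call under the length and GC adjustment (-0.32, adjusted p = 0.11). It also did so at equal totals (-0.37, adjusted p = 0.1). NES did not pass, and AQP4 held at most 3.11 in LACTB and 8.38 in vector libraries.

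Of the 9 tested genes, 4 rose with LACTB, 3 fell and 2 did not pass, so 7 were called against a background of 51.9%. The LACTB and vector libraries did not overlap for these 7, a state found for 59.7% of all tested genes (31.1% higher and 28.7% lower in LACTB cells). After adjustment for transcript length and GC content, 48.6% of genes were called. Among ligands LIF and IL11 rose, and among receptors LIFR and OSMR rose while IL6R fell. STAT3 and SOCS3 both fell. No test was made of whether the family differs from other genes.

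Promoter sequence from RefSeq (GRCh38.p14) is shown for 5 called genes, because these moved in opposite directions. The table matched 8 of the 10 genes with 11 windows, each from 250 bases before to 50 after a start site. LIF and CLCF1 have no entry. The outermost start of the gene in GENCODE release 29 lies within 5 of the 11 windows, those of IL11, IL6R, OSMR, IL6ST and STAT3. The windows of LIFR, SOCS3 and IL6 lie at other start sites, the one printed for LIFR 12949 bases inside the gene. Capitals mark 2 motifs, TTCNNNGAA, the core that STAT proteins bind, and TGANTCA, the core of AP-1 sites. Both read the same on either strand and no match overlapped another.
IL11 (chr19:55370414-55370713, minus strand): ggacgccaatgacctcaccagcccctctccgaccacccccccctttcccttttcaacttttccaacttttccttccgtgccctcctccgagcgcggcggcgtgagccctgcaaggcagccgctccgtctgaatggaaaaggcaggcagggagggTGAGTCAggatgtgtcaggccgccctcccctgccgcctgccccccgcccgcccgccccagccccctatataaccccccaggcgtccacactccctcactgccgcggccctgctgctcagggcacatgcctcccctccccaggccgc
LIFR (chr5:38595356-38595655, minus strand): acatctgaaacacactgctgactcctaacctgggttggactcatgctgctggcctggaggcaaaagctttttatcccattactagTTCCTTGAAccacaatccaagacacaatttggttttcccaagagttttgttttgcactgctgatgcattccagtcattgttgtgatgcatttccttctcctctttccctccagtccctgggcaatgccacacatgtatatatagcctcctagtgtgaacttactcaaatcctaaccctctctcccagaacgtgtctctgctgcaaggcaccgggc
OSMR (chr5:38845762-38846061, plus strand): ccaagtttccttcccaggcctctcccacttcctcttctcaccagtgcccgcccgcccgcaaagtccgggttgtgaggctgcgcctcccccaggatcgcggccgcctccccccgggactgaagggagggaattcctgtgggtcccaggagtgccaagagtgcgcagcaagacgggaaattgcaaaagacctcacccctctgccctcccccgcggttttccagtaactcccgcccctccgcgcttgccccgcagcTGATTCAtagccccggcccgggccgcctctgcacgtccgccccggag
IL6R (chr1:154405093-154405392, plus strand): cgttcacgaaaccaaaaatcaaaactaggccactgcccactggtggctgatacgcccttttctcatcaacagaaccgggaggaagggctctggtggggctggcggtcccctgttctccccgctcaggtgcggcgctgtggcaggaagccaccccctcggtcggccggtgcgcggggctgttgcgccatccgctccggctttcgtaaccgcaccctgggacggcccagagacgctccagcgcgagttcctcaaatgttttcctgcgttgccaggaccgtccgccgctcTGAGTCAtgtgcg
STAT3 (chr17:42388393-42388692, minus strand): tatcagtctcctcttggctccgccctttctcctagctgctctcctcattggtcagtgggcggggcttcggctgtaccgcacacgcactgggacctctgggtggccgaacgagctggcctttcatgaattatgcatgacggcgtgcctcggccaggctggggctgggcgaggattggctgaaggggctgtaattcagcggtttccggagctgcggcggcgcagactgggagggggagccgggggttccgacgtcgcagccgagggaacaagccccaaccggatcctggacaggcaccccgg

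A match to TTCNNNGAA stood in 2 of the 11 windows, both at LIFR, against 7.66% of all 35116 promoter windows. At LIFR it was TTCCTTGAA, 165 bases before the start site of the window printed. The stricter form TTCCNGGAA, held by 1.15% of all windows, was in none of the 11. TGANTCA was in 3 windows, against 7.71% of all, with TGAGTCA 96 bases before the start at IL11, TGATTCA at base 4 after it at OSMR and TGAGTCA at base 38 at IL6R. No match stood in the windows of STAT3 and IL6ST, nor in those of SOCS3 and IL6, which do not cover the outermost start of the gene. These are matches of letters, and binding was not measured. The windows of SOCS3, IL6ST and IL6 and the other LIFR windows are not printed.

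LIF, leukaemia inhibitory factor, rose more than any other gene of the set. Its 3 LACTB libraries held 16423, 11682 and 11632 normalized counts, against 4064, 4620 and 4525 in the vector libraries. LACTB library 1 was the highest, and the lowest LACTB library stood well above the highest vector library. The means were 13246 ± 2752 in LACTB and 4403 ± 298 in vector cells (SD, n = 3 each), a 3.01-fold rise, with a log2 difference of 1.57 (95% interval 1.31 to 1.84, adjusted p = 2.8e-09). This difference was larger than that of 98.7% of tested genes. Without LACTB library 1 it was 1.41. LIF lies at chr22:30240447-30246851 on the minus strand (GRCh38, GENCODE release 29). An antisense RNA, AC004264.1, overlaps its exons and rose with it, holding 141, 113 and 60.8 in LACTB and 42.6, 45.3 and 26.8 in vector libraries. Whether counting used the strand is not given, so reads of the pair cannot be told apart, and the counts of LIF were far larger. In a bulk culture, a change in how many cells carry a transcript cannot be told from a change per cell.

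IL11, a cytokine linked to fibrosis and bone turnover, rose by less. It held 923, 794 and 629 in the LACTB libraries and 509, 462 and 543 in the vector libraries. The lowest LACTB library was above the highest vector library by a small margin. The means were 782 ± 147 in LACTB and 505 ± 40.6 in vector cells (SD, n = 3 each), a log2 difference of 0.62 (95% interval 0.29 to 0.94, adjusted p = 0.0024). Adjusted for length and GC, the differences of both ligands were larger, 1.72 for LIF and 0.92 for IL11. IL11 lies at chr19:55364389-55370463 on the minus strand.

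CLCF1, a cytokine of neurons and B cells, did not pass. It stood at 568, 307 and 404 in LACTB libraries and 307, 313 and 432 in vector libraries, so the groups overlapped. The difference was 0.25 (95% interval -0.17 to 0.67, adjusted p = 0.30). The length and GC adjustment made it 0.62 (adjusted p = 0.016). CLCF1 lies at chr11:67364168-67374177 on the minus strand. IL6 itself was close to the floor and was not tested. It held 15.8, 7.49 and 15.8 in LACTB libraries and 14.96, 17.7 and 17.0 in vector libraries, which overlap. IL6 lies at chr7:22725884-22732002 on the plus strand. With no filter its difference was -0.39 (adjusted p = 0.63).

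**Figure D1:**
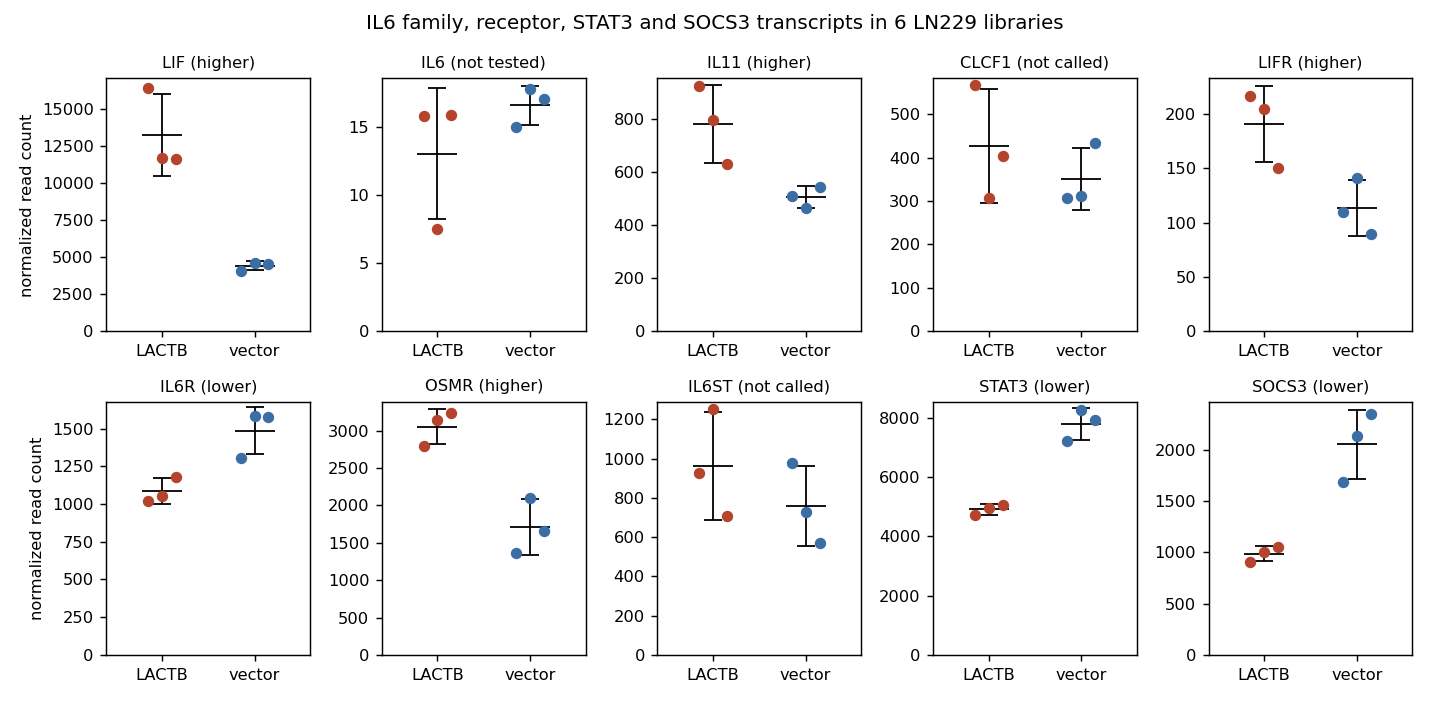
Normalized read count of each of the 10 genes in the 3 LACTB libraries (red, left) and the 3 vector libraries (blue, right) on linear axes from 0. Bars show mean ± SD, and the word after each name gives the limma call. The lowest LACTB library of LIF, at 11632, stands above the highest vector library, at 4620, while the highest value of IL6 is 17.7.

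Among the receptors, OSMR, the oncostatin M chain, rose. It held 2796, 3139 and 3231 in LACTB libraries and 1357, 2104 and 1663 in vector libraries. The groups stood apart, and the vector libraries were the more spread. The means were 3055 ± 229 in LACTB and 1708 ± 376 in vector cells (SD, n = 3 each), a 1.79-fold rise, with a log2 difference of 0.86 (95% interval 0.58 to 1.14, adjusted p = 2.3e-05). The length and GC adjustment left 0.55 (adjusted p = 0.0012). Exons of RICTOR overlap OSMR on the other strand, and RICTOR, a subunit of the second mTOR complex, held 252, 299 and 181 in LACTB and 188, 107 and 68.5 in vector libraries.

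LIFR, the chain that binds LIF, stood far below OSMR. It held 217, 205 and 151 in LACTB libraries and 110, 141 and 89.5 in vector libraries. The lowest LACTB library exceeded the highest vector library by only a little. The log2 difference was 0.75 (95% interval 0.27 to 1.23, adjusted p = 0.0094). The call was lost without LACTB library 1 (0.65, adjusted p = 0.053), without vector library 3 (0.60, adjusted p = 0.058), and under the length and GC adjustment (0.06, adjusted p = 0.83). An antisense RNA, LIFR-AS1, overlaps exons of LIFR. LIFR-AS1 held 21.8, 9.05 and 26.3 in LACTB and 36.1, 19.2 and 28.7 in vector libraries. Reads of this pair cannot be told apart if counting ignored the strand. LIFR has the longest transcript of the set, 10.09 kb at 36.2% GC. IL6ST, the shared chain, is next at 9.06 kb and 36.6% GC.

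IL6ST did not pass. Its libraries held 926, 1253 and 707 with LACTB and 976, 728 and 569 with vector, and they overlapped widely. The difference was 0.34 (95% interval -0.06 to 0.74, adjusted p = 0.15) as deposited, and -0.33 (adjusted p = 0.12) under the length and GC adjustment. It passed with equal column totals (0.53, adjusted p = 0.045), without LACTB library 3 (0.54, adjusted p = 0.016) and without vector library 1 (0.54, adjusted p = 0.02). Its direction thus depended on the processing. IL6ST lies at chr5:55935095-55994993 on the minus strand.

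IL6R, the chain specific to IL6, fell. It held 1018, 1056 and 1181 in LACTB libraries and 1306, 1580 and 1574 in vector libraries. All LACTB libraries stood below all vector libraries. The difference was -0.45 (95% interval -0.71 to -0.19, adjusted p = 0.0052), and -0.26 at equal column totals, which missed the threshold (adjusted p = 0.12). IL6R lies at chr1:154405193-154469450 on the plus strand. Pseudogene copies of IL6R and IL6ST are annotated, so reads of these genes may be shared with them.

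STAT3 fell in every LACTB library. The LACTB libraries held 4707, 4971 and 5058, against 7210, 8270 and 7936 in the vector libraries. The spread within each group was small beside the gap between them. The means were 4912 ± 183 in LACTB and 7805 ± 542 in vector cells (SD, n = 3 each), a log2 difference of -0.67 (95% interval -0.89 to -0.44, adjusted p = 3.2e-05). The difference stayed between -0.80 and -0.47 in every setting tried, and passed in each. The gene lies at chr17:42313324-42388568 on the minus strand.

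SOCS3, the inhibitor that STAT3 induces, fell further in the values as deposited. It held 904, 1006 and 1049 in LACTB libraries and 1686, 2132 and 2348 in vector libraries. The highest LACTB library was well below the lowest vector library. The means were 986 ± 74.1 in LACTB and 2055 ± 337 in vector cells (SD, n = 3 each), a log2 difference of -1.05 (95% interval -1.32 to -0.77, adjusted p = 1.4e-06). It ranked at percentile 4.0 of all tested differences. Adjusted for length and GC, SOCS3 stood at -0.74, close to STAT3 at -0.72. SOCS3 lies at chr17:78356778-78360077 on the minus strand.

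**Figure D2:**
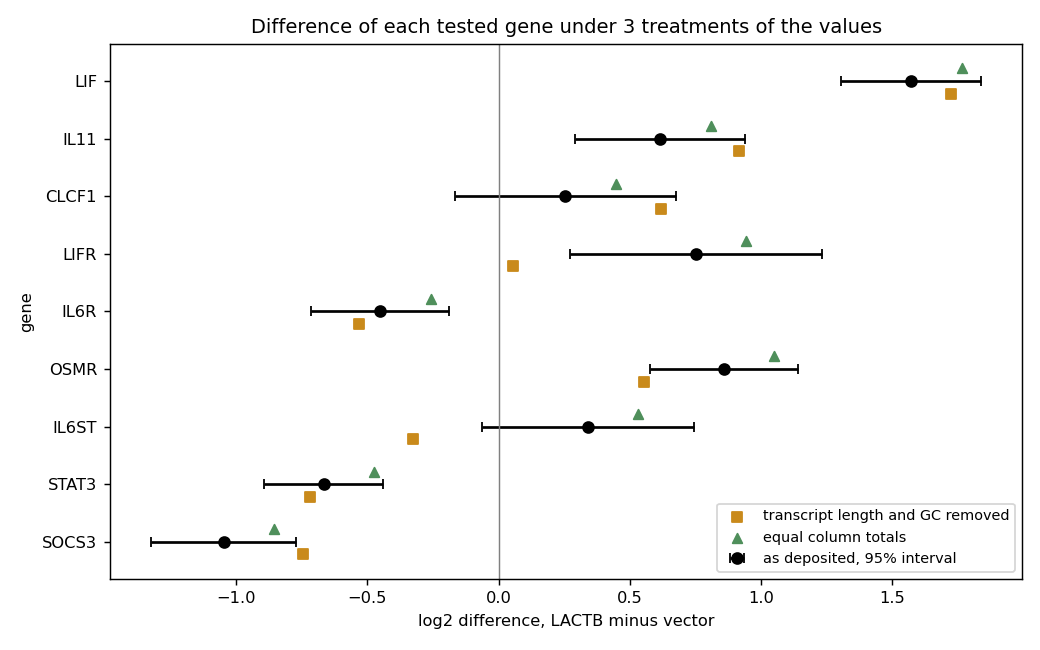
Log2 difference, LACTB minus vector, of the 9 tested genes, with the 95% interval of the fit as deposited (black). Squares show the value adjusted for transcript length and GC and triangles the value with equal column totals. LIF, IL11 and OSMR stay to the right of 0 and IL6R, STAT3 and SOCS3 to the left, LIFR moves to 0.06 and IL6ST moves from 0.34 to -0.33.

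Levels were compared between genes per kb of the longest annotated transcript. In LACTB cells LIF was first at 3337 ± 693 normalized counts per kb, then STAT3 at 973 ± 36.2, OSMR at 552 ± 41.4 and SOCS3 at 361 ± 27.1. In vector cells STAT3 was first at 1546 ± 107 per kb, then LIF at 1109 ± 74.99, SOCS3 at 752 ± 123 and OSMR at 308 ± 67.8. LIF and STAT3 thus changed places between the groups, and their libraries did not overlap in either. Below them came IL11 at 343 ± 64.4, CLCF1 at 231 ± 71.4 and IL6R at 183 ± 14.4 per kb in LACTB cells, against 221 ± 17.8, 190 ± 38.4 and 251 ± 26.5 in vector cells.

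In LACTB cells SOCS3 overlapped IL11, IL11 overlapped CLCF1 and CLCF1 overlapped IL6R, so these neighbours in the order did not differ beyond their spread. In vector cells OSMR overlapped IL6R, IL6R overlapped IL11 and IL11 overlapped CLCF1. IL6ST followed at 106 ± 30.3 per kb in LACTB and 83.7 ± 22.6 in vector cells. LIFR and IL6 were lowest, at 18.9 ± 3.48 and 8.53 ± 3.14 per kb in LACTB cells and 11.2 ± 2.55 and 10.9 ± 0.942 in vector cells, and their libraries overlapped in vector cells only.

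**Figure D3:**
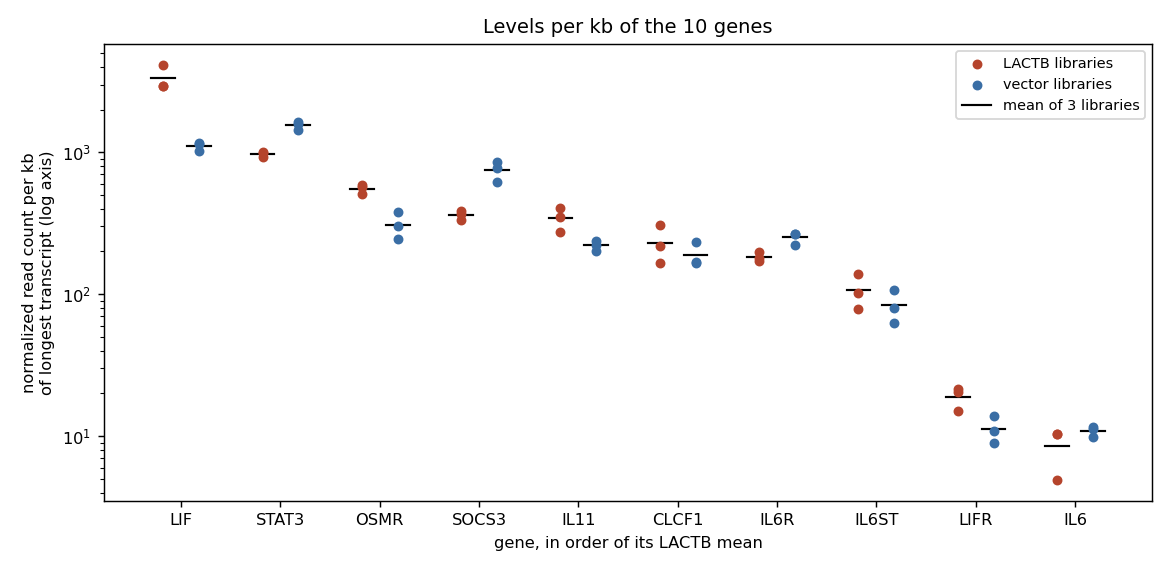
Normalized read count per kb of longest transcript, on a log axis, of the 10 genes ordered by their LACTB mean, with LACTB libraries (red) left of vector libraries (blue) and short lines at the means. LIF is above STAT3 in LACTB libraries and below it in vector libraries, and LIFR and IL6 are lowest, with LACTB means of 18.9 and 8.53 per kb.

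Ratios between 2 genes of one library do not depend on a single factor that scales a column. An adjustment that differs between genes can change them. With length and GC removed the difference of LIFR went from 0.75 to 0.06 and that of OSMR from 0.86 to 0.55. That of LIF went from 1.57 to 1.72. That of SOCS3 went from -1.05 to -0.74 and that of STAT3 from -0.67 to -0.72, so these 2 were then nearly equal. The ratios given here are of the values as deposited. They were chosen after the values were seen, 8 ratios were computed, and with 3 libraries against 3 the smallest p an exact two-sided permutation test can give is 0.10 (0.20 adjusted over the 8). The ratio of LIF to STAT3 per kb was 4.44, 2.99 and 2.92 in LACTB libraries and 0.717, 0.710 and 0.725 in vector libraries (exact permutation p = 0.10). The ratio of LIF to LIFR was 193, 145 and 196 in LACTB libraries and 94.1, 83.5 and 128 in vector libraries (exact permutation p = 0.10). In both ratios the groups did not overlap. SOCS3 to STAT3 was 0.355, 0.374 and 0.383 in LACTB libraries and 0.432, 0.476 and 0.546 in vector libraries (exact permutation p = 0.10). OSMR to LIFR overlapped, at 23.5, 27.9 and 39.1 in LACTB and 22.5, 27.2 and 33.8 in vector libraries (exact permutation p = 0.60).

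Of the STAT genes beside STAT3, values are given for STAT2, STAT4, STAT5A, STAT5B and STAT6, which do not stand for the whole STAT family. STAT6, which carries the IL4 signal, fell and held 1026, 1113 and 1026 in LACTB libraries and 2684, 2765 and 2972 in vector libraries (log2 difference -1.41, adjusted p = 2.8e-09). STAT5A fell by 1.01 (adjusted p = 1.8e-05), STAT2 by 0.43 (adjusted p = 0.0035) and STAT5B by 0.34 (adjusted p = 0.015), and STAT2 and STAT5B lost their calls at equal column totals (adjusted p = 0.092 and 0.29) and without LACTB library 1 (adjusted p = 0.054 and 0.052). STAT5B also lost its call without LACTB library 2 or 3 (adjusted p = 0.099 and 0.058). STAT4 was near 0 throughout.

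Of 10 family genes listed outside the set, 8 were matched and 3 passed the filter. Of these 1 rose and 2 fell, in each of the 4 other scalings too, where 27.4% and 24.6% of all tested genes did as deposited. IL11RA, the receptor of IL11, fell and held 71.1, 67.2 and 78.3 in LACTB libraries and 315, 272 and 266 in vector libraries (log2 difference -1.96, adjusted p = 1.5e-07). IL27RA, a partner of IL6ST, fell by 1.71 (adjusted p = 5.1e-07). IL31RA, which pairs with OSMR to bind IL31, rose and held 358, 323 and 295 in LACTB libraries and 78.1, 160 and 105 in vector libraries (log2 difference 1.55, adjusted p = 1e-05). Both chains of the IL31 receptor were thus higher, while IL11 and its receptor moved in opposite directions. The ligands OSM and CTF1 and the receptor CNTFR held at most 2.15 normalized counts in any library, and CNTF held 27.7 to 48.7 in LACTB and 6.61 to 30.5 in vector libraries.

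Of 10 JAK kinase and adaptor genes 4 rose and 2 fell (median 0.08), or 1 rose and 3 fell after the length and GC adjustment. Of all tested genes 27.4% rose and 24.6% fell, and after that adjustment 3011 of 12710 rose and 3165 fell. JAK1, the main kinase of IL6ST, rose and held 3003, 3498 and 3424 in LACTB libraries and 1898, 2042 and 1849 in vector libraries (log2 difference 0.78, adjusted p = 8.6e-06). JAK3, a kinase of lymphoid cytokine receptors, fell by 1.89, at a low level, (adjusted p = 2.3e-05). The exchange factor SOS1 rose by 1.09 and the phosphatase PTPN11 by 0.61, and neither passed after the length and GC adjustment (adjusted p = 0.11 and 0.078). JAK2 was the other gene that rose (0.84, adjusted p = 0.01, and 0.25 adjusted for length and GC) and SHC1 the other that fell (-0.41, adjusted p = 0.0033, and 0.052 at equal totals), both named after their values were seen.

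Inhibitors of the pathway rose in 5 of 11 tested cases and fell in 2 (median 0.23). After the length and GC adjustment 2 rose and 2 fell, and at equal totals 8 rose and 1 fell. Of all tested genes 27.4% rose and 24.6% fell as deposited. With length and GC removed 3011 of 12710 rose and 3165 fell, and at equal totals 4984 of 12950 rose and 1905 fell. SOCS2, a relative of SOCS3, fell and held 464, 592 and 516 in LACTB libraries and 1116, 920 and 932 in vector libraries (log2 difference -0.92, adjusted p = 2.2e-05). The other inhibitor that fell was the phosphatase PTPN1, named after its value was seen (-0.35, adjusted p = 0.014). It lost its call at equal totals (-0.16, adjusted p = 0.26), with quantile normalization (adjusted p = 0.15), and without LACTB library 1 or 2 (adjusted p = 0.051 and 0.072). SOCS4 rose by 0.82, SOCS6 by 0.59 and PIAS2, a SUMO ligase, by 0.71. After the same adjustment these 3 no longer passed (0.27, 0.08 and -0.01).

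Genes that STAT3 is known to induce fell in 10 of 22 tested cases and rose in 4 (median -0.21, against 0.05 for all tested genes), where 24.6% of tested genes fell and 27.4% rose. There were 7 falls and 7 rises at equal totals, 14 and 2 after median centring, and 8 and 6 after the length and GC adjustment. At equal totals 1905 of all 12950 tested genes fell and 4984 rose. After median centring 4148 of 12939 fell and 2684 rose, and with length and GC removed 3165 of 12710 fell and 3011 rose. JUNB, an AP-1 subunit, held 1462, 1294 and 1215 in LACTB libraries and 3159, 3567 and 3465 in vector libraries (log2 difference -1.36, adjusted p = 5.8e-09). The acute phase factors CEBPD and CEBPB fell by 1.39 (adjusted p = 8.8e-08) and 1.08 (adjusted p = 7.3e-08). Adjusted for length and GC, JUNB stood at -0.86, CEBPD at -0.80 and CEBPB at -0.56, and all still passed. SERPINA3, an acute phase protease inhibitor, held 17358, 22378 and 20314 in LACTB libraries and 54222, 41156 and 45897 in vector libraries (log2 difference -1.23, adjusted p = 9e-08). The 4 that rose, named after their values were seen, were the kinase PIM1 by 0.55, HIF1A by 0.73, VEGFA by 0.46 and CCND1 by 0.31. HIF1A stood at 0.38 adjusted for length and GC. VEGFA and CCND1 overlapped between groups. VEGFA (adjusted p = 0.014) lost its call after the length and GC adjustment (0.19, adjusted p = 0.25), after median centring (0.33, adjusted p = 0.063), and without LACTB library 1, vector library 1 or vector library 3 (adjusted p = 0.12, 0.057 and 0.073). CCND1 (adjusted p = 0.049) lost its call after median centring (adjusted p = 0.30) and without LACTB library 1 or 3 or vector library 1 or 3, with differences of 0.22, 0.33, 0.17 and 0.34. These targets answer to other factors too, and which of them STAT3 controls in these cells was not measured.

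Genes that act on receptor shedding and trafficking rose in 3 of 6 tested cases and fell in 1 (median 0.34). After the length and GC adjustment 2 rose and 3 fell. Of all tested genes 27.4% rose and 24.6% fell, and after that adjustment 3011 of 12710 rose and 3165 fell. RHBDF2, a cofactor of the sheddase ADAM17, held 228, 231 and 240 in LACTB libraries and 435, 492 and 620 in vector libraries (log2 difference -1.13, adjusted p = 1.6e-05), while its relative RHBDF1 rose by 0.43 (adjusted p = 0.011). RHBDF1 stood at 0.76 adjusted for length and GC, and lost its call after median centring (0.30, adjusted p = 0.069). ERAP1, which helps release a tumour necrosis factor receptor, rose by 0.57 (adjusted p = 0.001) and stood at 0.09 (adjusted p = 0.50) adjusted for length and GC. ADAM10, which can shed IL6R, rose by 0.41 (adjusted p = 0.011) and stood at -0.33 (adjusted p = 0.016) after the same adjustment. ADAM17 (0.27, adjusted p = 0.10) and FURIN (0.02, adjusted p = 0.88) did not pass, and ADAM17 too was then negative (-0.28, adjusted p = 0.038).

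Of 16 regulators of IL6 and LIF transcripts 5 rose and 6 fell (median -0.04). At equal totals 6 rose and 2 fell, and after median centring 2 rose and 6 fell. Of all tested genes 27.4% rose and 24.6% fell as deposited. At equal totals 4984 of 12950 rose and 1905 fell, and after median centring 2684 of 12939 rose and 4148 fell. ARID5A, which stabilises IL6 and STAT3 transcripts, held 767, 663 and 773 in LACTB libraries and 1484, 1507 and 1629 in vector libraries (log2 difference -1.07, adjusted p = 5.8e-07). JUN, an AP-1 subunit, rose by 0.77 (adjusted p = 3e-05) and RELB, an NF-kB subunit, fell by 0.91 (adjusted p = 4.8e-05), or by 0.45 adjusted for length and GC. RC3H2, which promotes decay of cytokine transcripts, rose by 0.66 (adjusted p = 0.0012) and stood at -0.02 once adjusted for length and GC.

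**Figure D4:**
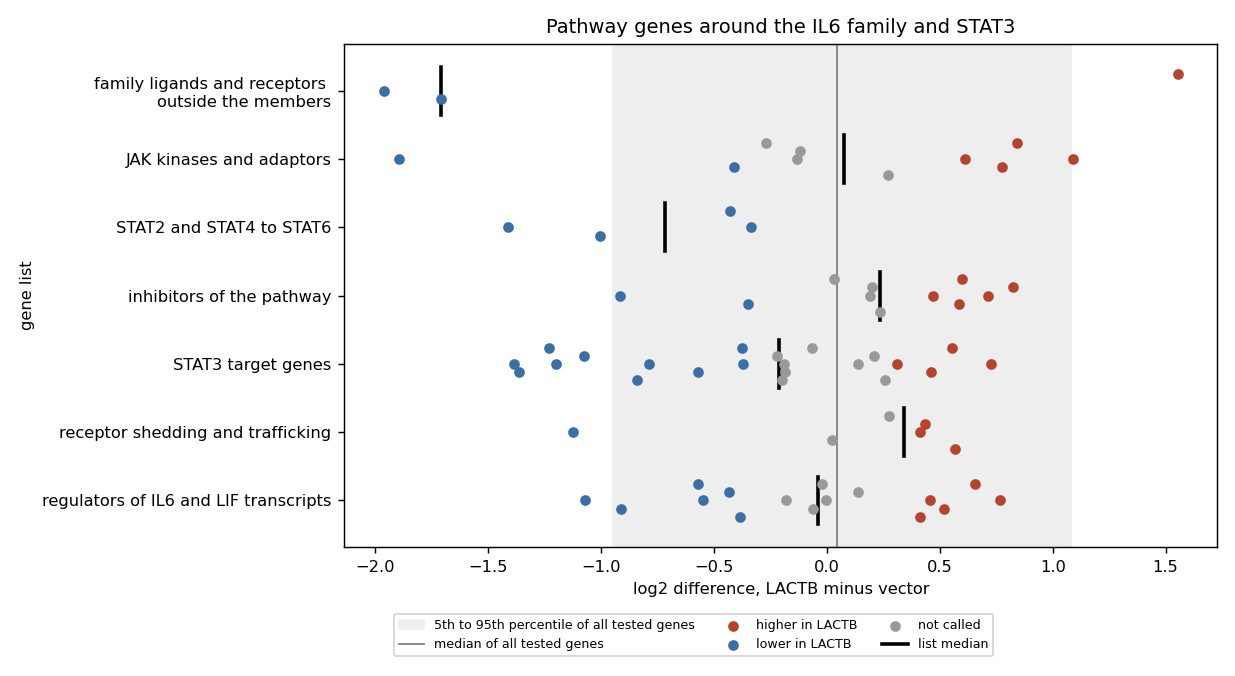
Log2 difference, LACTB minus vector, of every tested gene in 7 pathway lists (red higher, blue lower, grey not called), with each list's median (black bar), the median of all tested genes (grey line) and their 5th to 95th percentile (shaded, -0.95 to 1.08). Each list but that of the inhibitors holds a gene left of the shaded range, and IL31RA and SOS1 lie right of it.

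The 5 tested genes with profiles nearest to that of LIF over the 6 libraries, by root-mean-square distance of centred log2 values, were MYPN (0.077), KRT80 (0.099), SYNC (0.111), NRP1 (0.120) and LTBP2 (0.122). NRP1, a coreceptor of semaphorins and VEGF, held 5643, 5106 and 4906 in LACTB libraries and 1573, 1727 and 1640 in vector libraries. KRT80, a keratin, was like LIF highest in LACTB library 1, with 2922, 1769 and 1829 in LACTB and 694, 755 and 836 in vector libraries.

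Chromosomal neighbours of several of the genes moved too. LIFR and OSMR are neighbours on chromosome 5, on the minus and plus strands, at chr5:38474963-38608354 and chr5:38845858-38945596. Among the 50 tested genes nearest to OSMR, 36 rose (72%) and 3 fell, against 27.4% and 24.6% of all tested genes, with a median of 0.65. Adjusted for length and GC, 27 rose and 4 fell, with a median of 0.45. IL6ST lies next to IL31RA on the same chromosome, and of its 50 neighbours 25 rose and 5 fell (median 0.43), or 18 and 10 once adjusted (median 0.18). The value of OSMR, 0.86, was thus not far from its window's median, and that of IL6ST, 0.34, was below it, while IL31RA at 1.55 stood above.

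STAT3 lies beside STAT5A and STAT5B on chromosome 17, and all 3 fell. Of the 50 neighbours of STAT3 23 fell and 4 rose (median -0.32), or 18 and 10 once adjusted (median -0.12). Of those of SOCS3, also on chromosome 17 but far from it, 26 fell and 3 rose (median -0.34), or 19 and 6 once adjusted (median -0.17). CLCF1 on chromosome 11 was not called. Of its 50 neighbours 38 fell and none rose (median -0.59), or 31 fell and 1 rose once adjusted (median -0.38). Around IL11, which rose, 17 fell and 3 rose (median -0.19), or 7 and 14 once adjusted (median 0.09). Around IL6R, which fell, 25 fell and 6 rose (median -0.34), or 16 and 10 once adjusted (median -0.07). Around LIF 12 rose and 5 fell (median 0.11), or 17 and 3 once adjusted. The part of these regions in the members' values was not tested.

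**Figure D5:**
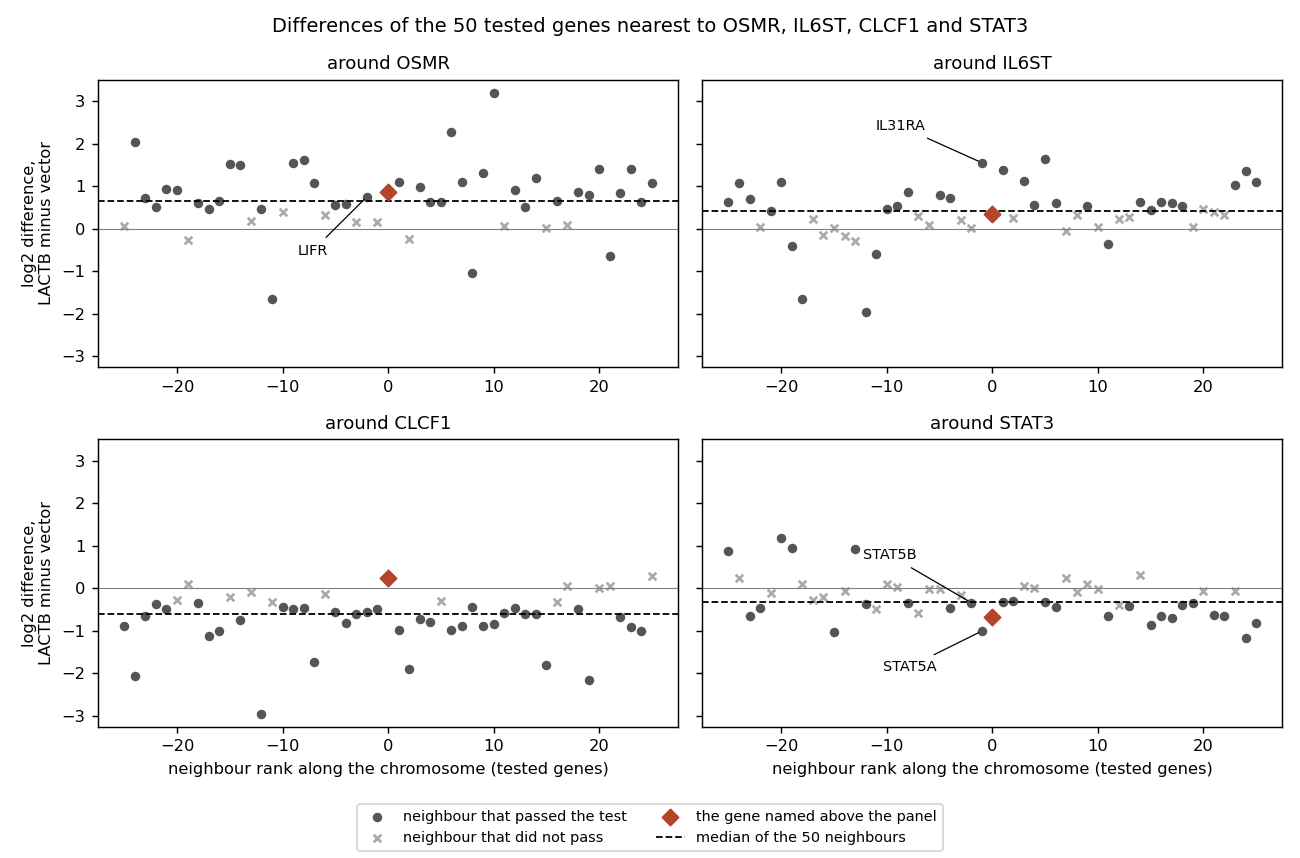
Log2 difference, LACTB minus vector, of the 25 tested genes on each side of OSMR, IL6ST, CLCF1 and STAT3 (diamonds), by rank along the chromosome, with circles for genes that passed the test, crosses for those that did not and a dashed line at the window median. The median is 0.65 around OSMR and -0.59 around CLCF1, which itself stands at 0.25.

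Markers of other cell types were summed in each library. Of 8 blood cell markers 7 were matched and 1 was tested, CD68, a lysosomal protein, which rose (1673, 1578 and 1592 in LACTB and 1118, 1025 and 1084 in vector libraries). The list summed to 1619 to 1731 in LACTB and 1067 to 1198 in vector libraries, nearly all of it CD68. The pan-leukocyte gene PTPRC held at most 5.44 in LACTB and 14.6 in vector libraries. AIF1 was below 1e-10 in all vector libraries, which was set to 0. The 6 endothelial markers summed to 180 to 208 in LACTB and 246 to 315 in vector libraries, with neither of the 2 tested, PECAM1 and VWF, passing. KDR, a VEGF receptor just under the filter and named after its values were seen, held 1.57, 1.55 and 11.5 in LACTB and 72.4, 79.8 and 57.6 in vector libraries. Its groups did not overlap, and with no filter its difference was -4.02 (adjusted p = 7.6e-13). The 5 neuronal and oligodendrocyte markers listed summed to 688 to 781 in LACTB and 944 to 1225 in vector libraries, and MBP fell by 3.01 while MOG rose by 0.81. SYN1 (-0.71, adjusted p = 0.084) and SNAP25 (-0.34, adjusted p = 0.14) did not pass. The part of these markers in the results was not tested.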

How the data were processed

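RNA-seq of 6 libraries of LN229 cells was analysed, 3 with LACTB and 3 with vector. Per the submitters' processing notes HISAT2 and hg38 were used. The sources used here name no read counter, strand setting or normalization. The deposited signal values are normalized read counts, not whole numbers, and values below 1e-10 were set to 0. A single best step per library turned 34.1% to 58.5% of low values into whole numbers (tolerance 0.05), where chance gives 10%. Whole reads could thus not be recovered, and the fit planned for normalized values replaced a count model. The precision rests on the spread between libraries, which the labels do not say are separate cultures, so it may be technical. Each of the 3 vector libraries held 22538 rows above 0 and 1951 rows below 1e-10, with none exactly 0. The values may therefore have been adjusted across libraries before deposit, which was not tested. In that case SDs, overlaps and p-values would not rest on fully independent libraries.

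Of 9 repeated symbols the row of higher mean was kept. Genes averaging 1 CPM or more were fitted on log2(value + 1) by limma 3.58.1 (R 4.3.3) with its trend and robust options, two-sided, with Benjamini-Hochberg adjustment. Fold changes on that scale understate low genes, and the script was tested on simulated data. Lengths, GC and positions came from GENCODE release 29, the longest transcript standing for a gene. Figures used matplotlib 3.10.9. Named genes were the members, up to 4 called genes per list with the smallest adjusted p, every tested gene of a list with 6 or fewer, and the 5 profiles nearest to LIF. Others were named after their values were seen. A few listed items are not reported here, and counts over the lists leave them out. Members and lists were chosen with earlier results of these data known. Alternatives were other scalings, filters, pseudocounts, limma settings, a replicate block, a threshold of 0.01 and leaving out each library.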

Additional observations from a re-analysis of the deposited data

How the results depend on the processing

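Of the 9 tested genes LIF, IL11, OSMR, STAT3 and SOCS3 kept their direction and call in all alternatives, and IL6R in all but equal column totals. Leaving out 1 library gave 6 to 8 called members, 5344 to 7341 called genes in all and 38 to 49 called pathway genes. Equal column totals left 1905 genes lower in LACTB, against 3177 as deposited, and moved the median of all genes to 0.24. With length and GC removed the direction turned for IL6ST (-0.33), for the marker PECAM1 (-0.13) and for 12 of 71 pathway genes, 6 of them called as deposited. The 6 called were ADAM10 (-0.33), PIAS2 (-0.0149), RC3H2 (-0.0205), PIAS1 (-0.13), TIMP1 (0.0429) and RC3H1 (-0.22). ADAM17 (-0.28) was among the uncalled ones. Uncalled genes near 0 also turned with median centring, FURIN to -0.11 and PECAM1 to -0.0534. Leaving out 1 library gave -0.0751 to 0.126 for FURIN and -0.102 to 0.324 for PECAM1. The cause was not tested. Same-numbered libraries deviated together little or not at all (correlations of 0.02, 0.18 and 0.00). The 0.18 of LACTB library 2 with vector library 2 was the largest of any pair. LACTB library 1 correlated best with vector library 3 (0.16). With the replicate number as a block 3673 genes were higher and 3206 lower, and 8 members were called, IL6ST being the added one (adjusted p = 0.042). Depth is unknown, which limits what can be said of IL6 and of the ligands near 0.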
